A study of Mus musculus with 2 samples.

Results

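Foxc1, Foxc2, Tbx18, Twist1, Foxd1, Dcn, Lum and Pdgfrb mark the mesenchyme of the meninges and of the vessel wall. They were taken by name, 8 of the 21911 protein-coding genes of GENCODE M21 (basic transcripts). Chromatin accessibility at their loci was read from DNase-seq, in which the nuclease DNase I cuts open chromatin. The tissue was hindbrain from healthy B6NCrl mouse embryos at 14.5 days, with males and females pooled. There was 1 group of 2 biological replicates, each with its own biosample and library and both labelled with the same donor record. How many embryos were pooled, and whether the meninges were left on the tissue, is not given in the sources used here.

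Meninges are the connective-tissue sheets that wrap the brain, and they arise from mesoderm and neural crest rather than from the neural tube. Their fibroblasts lay down collagen and proteoglycans and send retinoic acid, BMP and CXCL12 signals to the brain beneath. Blood vessels that grow in from this layer carry pericytes and perivascular fibroblasts, which wrap the endothelium and depend on PDGF signalling through Pdgfrb. Foxc1 and Foxc2 are forkhead factors of this mesenchyme, and loss of Foxc1 disrupts the meninges. Tbx18 is a T-box factor of mural cells, Twist1 a basic helix-loop-helix factor of cranial mesenchyme, and Foxd1 a forkhead factor of stromal progenitors. Dcn and Lum encode decorin and lumican, small leucine-rich proteoglycans that bind collagen fibrils.

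The libraries differed in size, with 263679 peaks in replicate 1 and 148804 in replicate 2 (1.77 times as many), so every count below was read against the same count over all genes. Every deposited peak is 150 bp wide, and a hotspot is a region of enriched cutting of any width. Each peak carries a score whose unit is not stated, so scores were set across libraries as percentiles, the position of a peak among all peaks of its own library. As a check of neural tissue, all 12 pan-neuronal genes and all 10 neural progenitor genes had a promoter peak in each library, where the CpG classes of these genes give 9.23 and 8.69 of 12 and 8.99 and 8.67 of 10 in replicates 1 and 2. These lists mark neural tissue and do not tell hindbrain from other brain regions. In a bulk tissue, fewer cells of a type and less open chromatin per cell cannot be told apart.

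Promoters of the 8 genes were open in nearly every case. A peak lay within 1 kb of a transcription start site (TSS) for 8 of 8 genes in replicate 1, where 69.9% of all protein-coding genes had one. In replicate 2 it was 7 of 8, against 65.7%, and Lum was the gene without a peak. Both libraries had a promoter peak at 7 genes, against 65.0%, and the peaks overlapped at 6, against 64.6%. Foxd1 was the gene with peaks in both libraries at different places. Hotspots gave the same counts, 8 of 8 in replicate 1 against 70.5% of all genes, and 7 of 8 in replicate 2 against 66.1%.

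Promoter calls in all genes varied with CpG content. The observed/expected CpG ratio of the 500 bp on either side of the start placed the 5 factors in classes 8 to 10 of 10, where 97.4% to 99.3% of genes had a promoter peak in either library. Dcn (0.239) and Lum (0.187) fell in class 3, where 33.4% of genes had a promoter peak in replicate 1 and 23.3% in replicate 2. Pdgfrb (0.394) fell in class 4, where the shares were 57.4% and 48.2%. An open promoter was thus the usual state among genes with the CpG content of the factors, and the less usual state among genes with that of Dcn or Lum.

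Sequences of 7 sites follow as a description: shared distal sites of Foxc1, Foxc2, Foxd1 and Dcn, and promoter sites of Tbx18 and Twist1. No site of Lum or Pdgfrb is printed. They come from RefSeq assembly GRCm38.p6, 5′ to 3′, on the plus strand except for the Tbx18 promoter, which is on the minus strand. Capitals mark matches to the searched motifs on either strand, which are spelled out after the sequences. The names give the gene and the place of the site, and the Twist1 piece is the part of a promoter peak that lies before the first exon.
Foxc1 5.24 kb upstream (chr13:31801316-31801465): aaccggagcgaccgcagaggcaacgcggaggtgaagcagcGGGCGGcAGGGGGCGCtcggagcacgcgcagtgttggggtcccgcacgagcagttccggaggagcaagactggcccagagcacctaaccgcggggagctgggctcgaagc
Foxc1 13.9 kb upstream (chr13:31792636-31792785): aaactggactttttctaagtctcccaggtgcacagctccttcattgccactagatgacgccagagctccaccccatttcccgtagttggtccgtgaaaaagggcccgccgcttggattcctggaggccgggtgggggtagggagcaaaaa
Foxc2 2.72 kb upstream (chr8:121113376-121113525): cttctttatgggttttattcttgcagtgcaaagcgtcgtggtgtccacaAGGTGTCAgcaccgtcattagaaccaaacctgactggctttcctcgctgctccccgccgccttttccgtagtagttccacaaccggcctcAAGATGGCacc
Tbx18 promoter (chr9:87731296-87731445): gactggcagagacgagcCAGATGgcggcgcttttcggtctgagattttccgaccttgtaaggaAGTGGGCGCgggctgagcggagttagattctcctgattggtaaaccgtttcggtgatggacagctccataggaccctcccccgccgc
Twist1 promoter, upstream piece (chr12:33957536-33957670): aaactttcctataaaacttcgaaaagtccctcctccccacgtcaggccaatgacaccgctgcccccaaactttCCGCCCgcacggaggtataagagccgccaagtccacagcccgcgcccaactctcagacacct
Foxd1 37.1 kb downstream (chr13:98391296-98391445): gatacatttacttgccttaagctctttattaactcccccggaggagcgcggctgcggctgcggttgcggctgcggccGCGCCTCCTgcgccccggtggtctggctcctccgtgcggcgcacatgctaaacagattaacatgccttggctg
Dcn 25.9 kb upstream (chr10:97453676-97453825): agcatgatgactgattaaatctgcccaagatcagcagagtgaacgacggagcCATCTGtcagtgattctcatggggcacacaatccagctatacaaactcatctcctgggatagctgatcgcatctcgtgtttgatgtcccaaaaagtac

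The search found GGGCGG (bound by SP factors) and AGNNGGCGC (core of the CTCF site) at the Foxc1 site 5.24 kb upstream, and no match at the Foxc1 site 13.9 kb upstream. The Foxc2 site held AGGTGTNA (T-box) and AAGATGGC (YY1). The Tbx18 promoter held CAGATG, an E-box, and AGNNGGCGC. The Twist1 piece held GGGCGG, the Foxd1 site AGNNGGCGC, and the distal Dcn site CAGATG. All motifs were searched on both strands, and no matches overlapped each other in the printed windows. The CTCF core and YY1 letters were added after these sequences had been seen.

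The same letters were counted in all distal peaks of 150 bp shared by both libraries, 81031 in the genome and 37 at the members. AGNNGGCGC lay in 6 of the 37 (16.2%), against 5.41% of all. These letters and AAGATGGC were added after printed sites among the 37 had been seen, so their counts cannot show an excess. AGGTGTNA lay in 2 (5.41%), against 1.5%, and GGGCGG in 3 (8.11%), against 6.12%. The E-boxes ran the other way: CAGATG lay in 2, against 17.7% of all, CAGCTG in 1, against 16.6%, and CATATG in 0, against 3.04%. The forkhead motif TGTTTAC lay in 0 of the 37, against 2.07%, the AP-1 motif TGANTCA in 1, against 4.92%, and the TEAD motif CATTCC in 1, against 9.18%. AAGATGGC lay in 1, against 1.13%, the SOX motif CATTGT in 2, against 8.71%, the homeodomain motif TAATTA in 0, against 6.85%, and the palindromic NFI site in 0, against 0.255%. The longer CTCF motif lay in 1, against 6.98%. Median GC content was 52.7% at the members and 50% over all shared distal peaks. At shared promoter peaks, GGGCGG lay in 4 of the members' 10, against 38.1% of all 30691. CAGATG lay in 2 of these 10, against 7.62%, CAGCTG in 1, against 10.2%, and AGNNGGCGC in 2, against 8.43%. Several of the 37 sites lie side by side at 1 locus, and a match of letters is a description and not a bound factor.

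Distal peaks lay more than 1 kb from every TSS and within 50 kb of a member's TSS. The 8 genes had 81 in replicate 1 and 61 in replicate 2, and 37 of the replicate 1 peaks overlapped a peak of replicate 2. The median per gene was 6 in replicate 1, 7.5 in replicate 2 and 3 shared, where all protein-coding genes had medians of 8, 4 and 3. In total and at 6 of the 8 genes replicate 1 had the larger number, as over all genes, and only the median over the 8 was higher in replicate 2. Counts ran from Lum, with 5 distal peaks in replicate 1 and 0 in replicate 2, to Twist1, with 22 and 21.

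**Figure D1:**
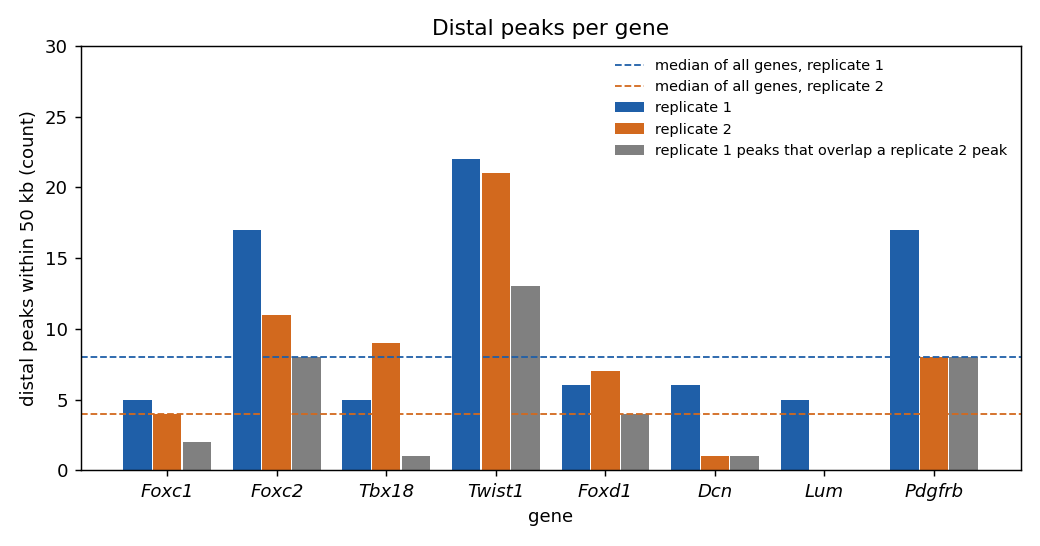
Number of distal peaks (y axis) within 50 kb of the TSS of each gene (x axis) in each library. Grey bars count the replicate 1 peaks that overlap a replicate 2 peak, and dashed lines are the medians of all protein-coding genes, 8 and 4. Twist1 holds 22 and 21, Tbx18 has 5 in replicate 1 and 9 in replicate 2, and Lum has 5 and 0.

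Tbx18 and Foxd1 had more distal peaks in replicate 2 than in replicate 1, 2 of 8 members, where 8.28% of all genes did. Lum was the 1 of 8 members with no shared distal peak, where 17.4% of all genes had none. Of the 37 shared distal peaks, 18 were intergenic, 15 intronic and 4 exonic. A member had the nearest TSS for 22 of them. Neither count was made over all shared distal peaks, so both only describe these sites. Scores above percentile 80 in both libraries were reached by 7 of the 37, where 16.3% of all shared distal peaks did.

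**Figure D2:**
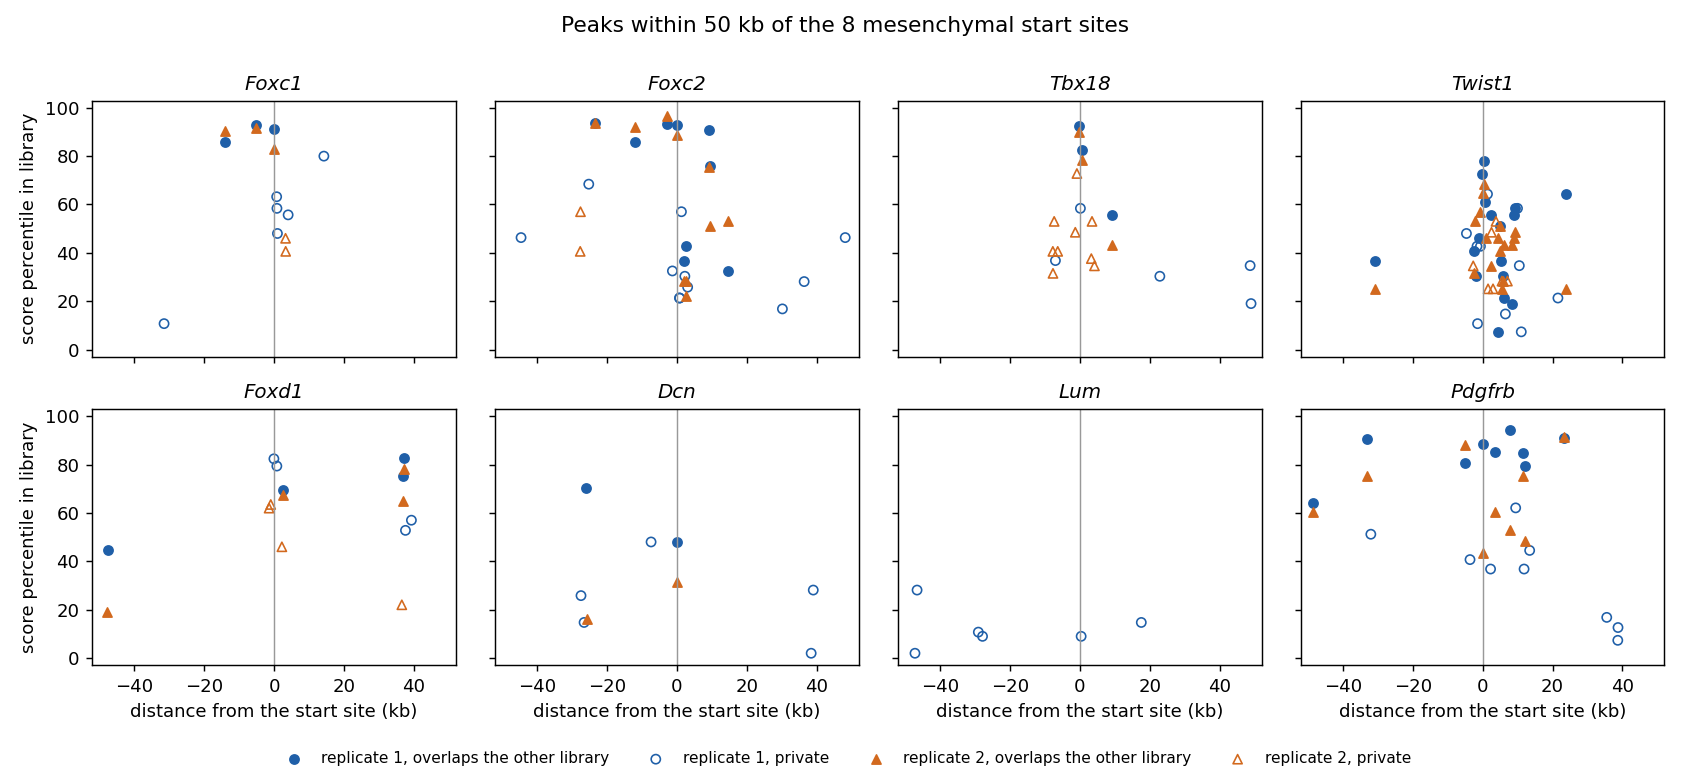
Peaks of both libraries around the TSS of each gene, by distance from the TSS in kb (x axis) and score percentile (y axis), marked by library and by overlap. Foxc1 and Foxc2 carry a few high-ranking shared sites upstream, and the Twist1 peaks crowd within 10 kb of the start.

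Foxc1 had 2 shared distal sites, and both ranked high. Its promoter peak centred 42 bp before the TSS (chromosome 13, 31806633) scored 101 in replicate 1 and its partner scored 60 in replicate 2, percentiles 91.2 and 83.1. A hotspot of 466 bp at the capped −log10 q of 100 covered the start in replicate 1, and a hotspot of 259 bp at 5.70 covered it in replicate 2. Distal peaks numbered 5 and 4. The shared site 5.24 kb upstream (chromosome 13, 31801316 to 31801465, mm10, intergenic) scored 107 and 81, percentiles 92.9 and 91.6. The shared site 13.9 kb upstream (31792636 to 31792785) scored 88 and 77, percentiles 86.0 and 90.3. Ranks at both sites were close in the 2 libraries. Both sites lie nearer to the start of Gm11379 (3852 and 4828 bp) than to that of Foxc1, so position does not assign them to Foxc1. The remaining peaks did not overlap. Replicate 1 alone had peaks 31.4 kb upstream (percentile 10.7), 4.04 kb downstream in the Foxc1 exon (55.7) and 14.3 kb downstream in a Gmds intron (80). Replicate 2 alone had a pair in the Foxc1 exon 3.30 and 3.34 kb downstream, at percentiles 46.0 and 40.6.

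Foxc2 had the strongest shared distal sites of the factors. The promoter peak centred 40 bp before the TSS (chromosome 8, 121116171) scored 107 and 73, percentiles 92.9 and 88.9, inside capped hotspots of 623 and 382 bp. Distal peaks numbered 17 and 11, with 8 shared. The site 2.72 kb upstream (121113376 to 121113525) scored 109 and 104, percentiles 93.4 and 96.5. Another, 23.3 kb upstream in an exon of Mthfsd (121092776 to 121092925), scored 111 and 89, and the site 11.9 kb upstream scored 88 and 82. These 3 sites ranked at percentile 86.0 or above in both libraries. On the other side of the gene, the shared sites 9.24 and 9.52 kb downstream ranked at 90.9 and 75.9 in replicate 1 and at 75.3 and 50.9 in replicate 2. Foxf1, Foxl1 and Mthfsd also start within 50 kb, so a site here cannot be assigned to Foxc2 from its position.

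Tbx18 had a promoter of like rank in both libraries and distal peaks that were mostly not shared. The promoter peak centred 111 bp before the TSS (chromosome 9, 87731260, minus strand) scored 105 and 76, percentiles 92.4 and 90.0, in hotspots of 509 and 432 bp that were both capped. A second shared promoter peak 529 bp into the gene scored 81 and 52. Distal peaks numbered 5 in replicate 1 and 9 in replicate 2, and 1 was shared, an intronic site 9.23 kb into the gene (87721956 to 87722105) at percentiles 55.7 and 43.4. The 8 private peaks of replicate 2 lay within 10 kb of the start and had scores of 23 to 31. They made up 8 of the 22 replicate 2 peaks at the 8 loci that had no partner in replicate 1. For every distal peak here except 1 in replicate 2, the start of D030062O11Rik or Gm37374 was nearer than that of Tbx18.

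Twist1 stood out by the density of weak peaks near its start. Within 10 kb of the TSS (chromosome 12, 33957671) there were 22 peaks in replicate 1 and 23 in replicate 2, where the median gene had 3 in each. As many were found at 0.237% of genes in replicate 1 and at 0.187% in replicate 2. Their median score was 44 and 27, below the library medians of 47 and 30. Hotspots covered 36.4% of that 20 kb window in replicate 1 and 26.4% in replicate 2. The hotspot over the start measured 2119 bp at the cap in replicate 1 and 201 bp at a −log10 q of 2.35 in replicate 2. The highest promoter peak lay 360 bp inside the first exon and scored 74 and 41, percentiles 78.1 and 68.6. Of the 22 and 21 distal peaks 13 were shared, at percentiles of 7.31 to 64.3 in replicate 1. This run of peaks was singled out after its values had been seen, and the 37 shared distal peaks became 24 without Twist1.

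Foxd1 had promoter peaks in both libraries, but not at the same point of its promoter. Replicate 1 had peaks 31 bp before the TSS (chromosome 13, 98354242), with a score of 81, and 809 bp after it, with a score of 76. Replicate 2 had a peak 931 bp before it, with a score of 37, percentile 63.5. A hotspot of 237 bp with a −log10 q of 4.17 covered the start in replicate 1, and no replicate 2 hotspot did. Distal peaks numbered 6 and 7, with 4 shared. The strongest lay 37.1 kb downstream in intergenic sequence (98391296 to 98391445) and scored 82 and 52, percentiles 82.9 and 78.3. A neighbour 36.8 kb downstream scored 70 and 38, so this pair of distal sites, unlike the start, was open in both libraries. The start of Btf3 also lies within 50 kb of Foxd1. Gm2445 starts nearer to this distal pair than Foxd1 does, at 11712 bp from the strongest site.

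The matrix genes Dcn and Lum had the lowest-ranking distal sites of the 8, with median percentiles of 26.9 and 10.7 in replicate 1. Dcn (chromosome 10, 97479609, class 3 promoter) had 1 promoter peak in each library, with scores of 46 and 23, percentiles 48.0 and 31.5. The hotspot over its start measured 421 bp at a −log10 q of 6 in replicate 1 and 168 bp at 2.06 in replicate 2. Its distal peaks numbered 6 and 1. The shared one, 25.9 kb upstream (97453676 to 97453825), scored 64 in replicate 1 and 18 in replicate 2, percentiles 70.2 and 16.3. That drop of 54.0 percentile points was reached by 0.924% of the 81031 shared distal peaks, whose median drop was 13.5. It was the largest drop among the members' 37 shared distal peaks, so the share describes a picked extreme and is not a test.

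Lum lies 85.5 kb downstream of Dcn on the same strand (start 97565128). Its promoter peak was found in replicate 1 with a score of 27, percentile 8.96, 403 bp inside the gene, and not in replicate 2. The hotspot there measured 169 bp at a −log10 q of 2.44. The 5 distal peaks of replicate 1 ranked at percentiles of 1.96 to 28.1, and 2 of them are also counted for Dcn. Kera, another proteoglycan gene, starts within 50 kb. With replicate 1 cut to its strongest peaks, as many as replicate 2 has, the Lum promoter peak was gone: 7 of 8 members then had a promoter peak in replicate 1, against 65.9% of all genes. A promoter peak in replicate 1 and not in replicate 2 was found for 1 of 8 members, Lum, against 4.88% of all genes, and with equal peak numbers for 0 of 8, against 1.84%.

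Pdgfrb (chromosome 18, 61045150), the receptor on mural cells, was the member with the largest shift in promoter rank. The peak 19 bp upstream of the start had scores of 94 and 27 in replicates 1 and 2, percentiles 88.6 and 43.4. A drop of at least 45.3 percentile points was reached by 0.730% of the 30691 shared promoter peaks, whose median drop was 5.29. As the largest drop among the members' 10 shared promoter peaks it is a picked extreme, and the share is not a test. The hotspot over the start went from 446 bp at the cap to 301 bp at a −log10 q of 2.83. The distal sites did not move as a block. An intronic site 23.4 kb into the gene scored 101 and 80, percentiles 91.2 and 91.3, and a site 5.14 kb upstream scored 78 and 71, percentiles 80.6 and 88.1. Another intronic site, 7.78 kb into the gene, scored 114 and 31, percentiles 94.5 and 53.0. Distal peaks numbered 17 and 8, and all 8 of replicate 2 were shared. Cdx1 and Slc6a7 start within 50 kb, and the sites 33.2 and 48.6 kb upstream lie inside Slc6a7.

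**Figure D3:**
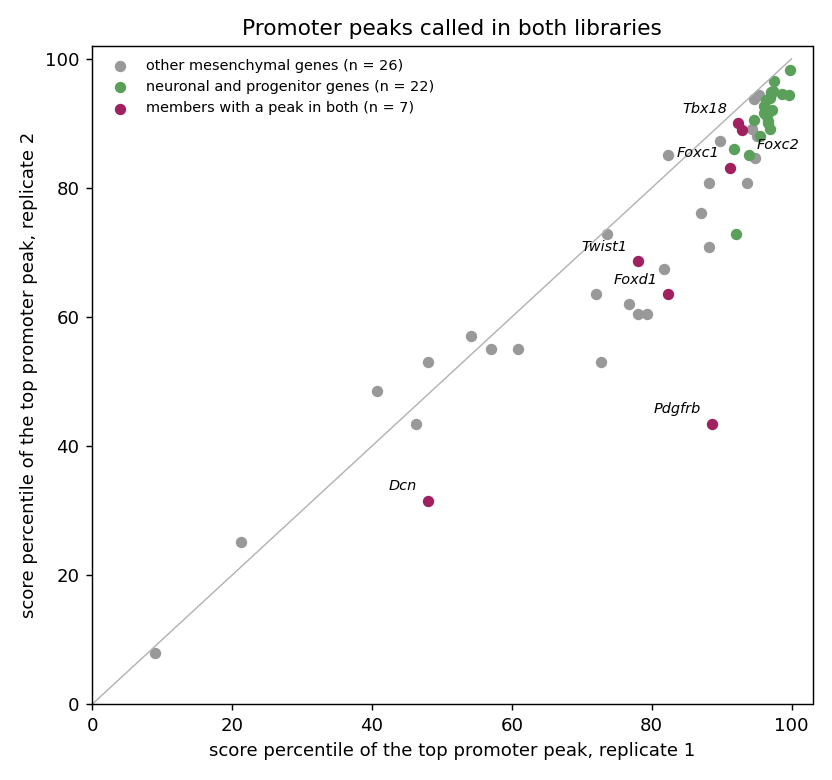
Score percentile of the top promoter peak in replicate 1 (x axis) and replicate 2 (y axis) for genes with a promoter peak in both, with the line of equal rank. Foxc1, Foxc2 and Tbx18 lie near the line at 83.1 or above in both libraries, and Pdgfrb falls from 88.6 to 43.4.

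Promoter rank was lower in replicate 2 at all 7 members with a peak in both libraries. Most promoters shared this, since the 25th percentile of the drop over all 30691 shared promoter peaks was 1.17, and the ranks come from lists of unequal length. The drops at overlapping promoter peaks had a median of 7.98 percentile points over 10 member peaks, against 5.29 over all 30691. At distal shared peaks the median drop was 8.52 over the members' 37, against 13.5 over all 81031. Whether these medians differ was not tested.

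The balance of the libraries at the 8 loci differed from that near other genes by less than counting error. Replicate 1 held 57.0% of the 142 distal peaks at the members (Wilson 95% interval 48.8% to 64.9%), against 63.6% near all protein-coding genes. With equal peak numbers it held 40.2% (31.2% to 49.9%), 41 against 61 peaks, where the share near all genes was 49.5%. Both intervals include the share near all genes. Hotspots gave 56.2% against 63.3%. These intervals cover counting error only, and neighbouring peaks at 1 locus are not independent.

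The members did not move as a block between the libraries. At the 5 factor genes replicate 1 held 55 distal peaks and replicate 2 held 52, a replicate 1 share of 51.4% (42.0% to 60.7%). At Dcn, Lum and Pdgfrb together it was 26 and 9, a share of 74.3% (57.9% to 85.8%). With equal peak numbers the shares were 35.0% (25.5% to 45.9%) and 59.1% (38.7% to 76.7%). This split by role was made after the values had been seen, so the gap between the 2 groups is a description. All 9 replicate 2 peaks at Dcn, Lum and Pdgfrb overlapped a replicate 1 peak, and 30 of 52 did at the factors (57.7%).

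Over all 8 loci, 63.9% of replicate 2 distal peaks were shared (51.4% to 74.8%), below the 76.9% near all genes. Without Tbx18, which holds 8 of the 22 unshared ones, the share was 73.1% (59.7% to 83.2%). Without Twist1 it was 62.5% (47.0% to 75.8%). Of the replicate 1 peaks 45.7% were shared (35.3% to 56.5%), against 43.0%.

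Other genes listed as mesenchymal markers were counted in the same way, though bulk tissue does not assign their sites to a cell layer. The 4 further lists held 42 genes, and 36 had a promoter peak in replicate 1 and 27 in replicate 2. Replicate 1 held 501 of their distal peaks and replicate 2 held 277, a share of 64.4% (61.0% to 67.7%), which includes the 63.6% near all genes. A promoter peak was found in replicate 1 alone at 10 of the 42 genes, against 4.88% of all genes. It was found in replicate 2 alone at 1 of the 42, against 142 of all 21911 genes. With equal peak numbers these counts became 6 and 4, against 1.84% of all genes for replicate 1 alone and 353 of 21911 for replicate 2 alone. These shares over all genes were not matched for CpG class. CpG-poor promoters held 8 of the 10, among the 27 genes of classes 1 to 5, where the rates of those classes give 2.42.

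By role, the mesenchyme regulators had a promoter peak at 10 of 12 in replicate 1 and 7 of 12 in replicate 2. Prrx2, Osr1, Meox2 and Alx4, homeobox and zinc finger factors, had one in replicate 1 alone, also with equal peak numbers, and Tcf21 in replicate 2 alone. All 8 meningeal signals and enzymes were open in both libraries, among them Crabp2, which binds retinoic acid inside cells, with 14 shared distal peaks, and Bmp4 with 3. Fibroblast matrix genes were open at 8 of 10 and 5 of 10. The collagen gene Col3a1, the proteoglycan gene Bgn and Postn were open in replicate 1 alone, at percentiles of 16.8 to 40.7, and none of the 3 kept its peak with equal peak numbers. Pericyte and smooth muscle genes were open at 10 of 12 and 7 of 12, with Rgs5, Cspg4 and Heyl in replicate 1 alone. Rgs5 and Cspg4 kept the peak with equal peak numbers and Heyl did not. Over all genes the shares were 69.9% and 65.7%.

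In lists of other non-neural cells more promoters were open in replicate 1, as over all genes (69.9% and 65.7%). Promoter peaks were found at 8 of 11 endothelial genes in replicate 1 and 4 in replicate 2, at 4 and 1 of 10 microglial genes, at 6 and 1 of 10 erythroid genes, at 4 and 2 of 8 skeletal muscle genes, and at 6 and 4 of 8 cartilage genes. With replicate 1 cut to equal peak numbers the replicate 1 counts became 5, 3, 4, 4 and 5, against 65.9% of all genes. Open in replicate 1 alone were 4 endothelial, 3 microglial, 5 erythroid, 2 skeletal muscle and 2 cartilage genes, where the rates of their CpG classes give 0.777, 0.934, 0.833, 0.553 and 0.592. With equal peak numbers these counts were 1, 2, 3, 2 and 1, against 1.84% of all genes. That share was not matched for CpG class, and most genes of each of these lists lie in the CpG-poorer classes. Genes open in replicate 1 alone included the endothelial receptors Tek and Tie1, the myeloid factor Spi1 and the erythroid factor Klf1, of which Klf1 alone kept its peak with equal peak numbers. At the members, 7 of 8 promoters were open in both libraries, against 65.0% of all genes. The CpG classes of the 8 members give 6.2 open promoters in replicate 1 and 5.86 in replicate 2. Whether the libraries differ in non-neural cell content was not tested, since each is a single library with unknown depth.

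**Figure D4:**
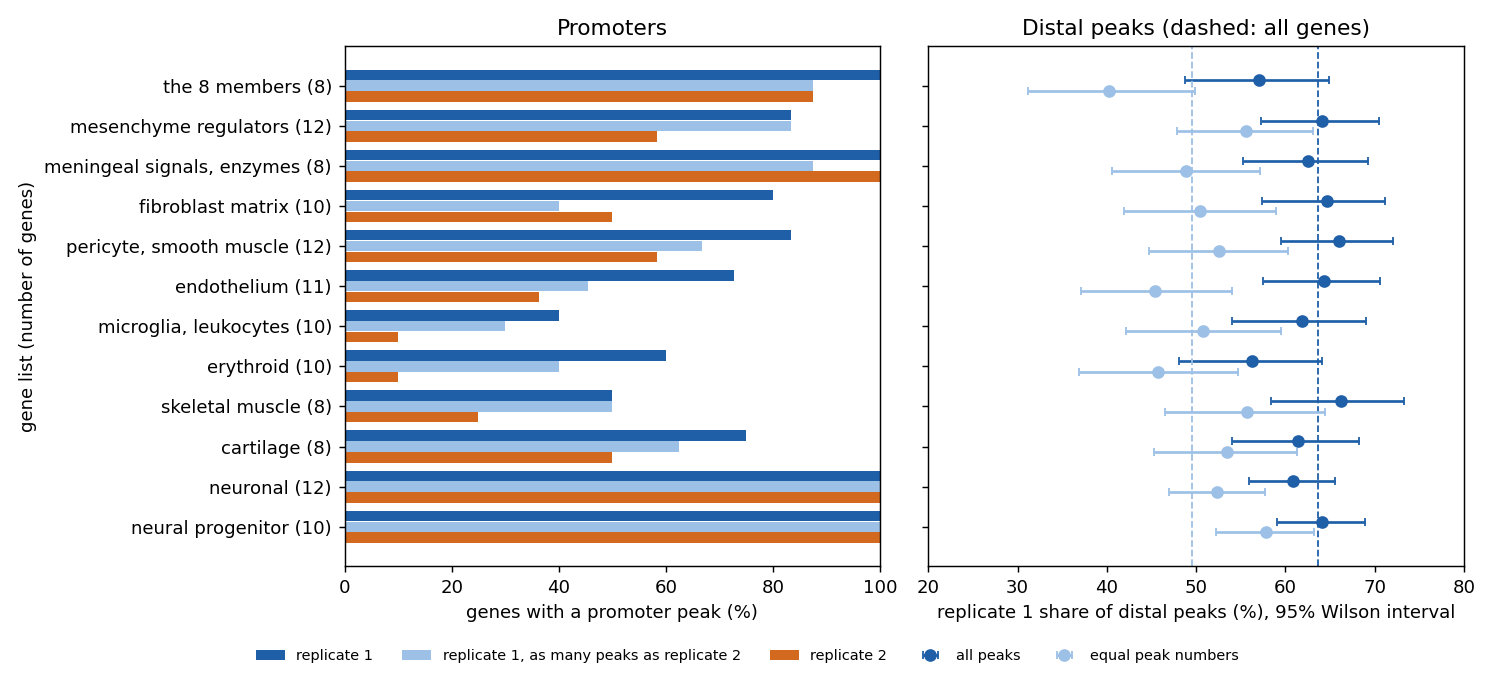
Left, percent of the genes of each list with a promoter peak in replicate 1, in replicate 1 cut to equal peak numbers and in replicate 2. Right, replicate 1 share of the distal peaks at each list (percent, with Wilson 95% intervals) with all peaks and with equal peak numbers, where dashed lines mark the shares near all protein-coding genes, 63.6% and 49.5%. With all peaks the members sit at 57.0%, and the 4 other mesenchymal lists sit at 62.5% to 66%.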

How the data were processed

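DNase-seq peaks and hotspots of the 2 libraries were each made from that library's own mm10 alignments, according to the deposited README texts. The sources used here do not give the aligner, the caller or their settings. The authors' peak score is a whole number from 1 to 150 of unstated unit, so it was compared by rank within a library. Hotspots have, in the deposited column, a −log10 q-value from 1.30 to 6.00 or a capped value of 100, by the position of the column in the format. The files hold no read counts, so depth is unknown.

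Peaks with the midpoint at most 1 kb from a GENCODE M21 basic TSS were promoter peaks, and distal peaks lay farther from every TSS and within 50 kb of the gene's. Overlap of 1 bp made a peak shared, and sets of shared peaks use replicate 1 positions. Equal peak numbers means that replicate 1 was cut to its highest-scoring peaks. Percentiles average ties. The 10 CpG classes are equal parts of all protein-coding genes. Shares carry 95% Wilson intervals, which cover counting error only. With 2 libraries of 1 group no test between groups exists. All 8 members are named. Of the other lists, genes whose promoter call differs between libraries are named. The genes with the most and the fewest shared distal peaks are given for the meningeal signals and enzymes only. Members and lists were chosen with earlier results of these data known. Alternatives changed the windows, overlap, peak numbers, score and hotspot limits, replicates and members. Counting was tested on simulated data. Python 3.11.15, numpy 2.4.6, pandas 2.3.3, scipy 1.17.1 and pysam 0.24.0 were used.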

Additional observations from a re-analysis of the deposited data

How the results depend on the processing

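Of the alternative settings, 45 left a value within its error or within 1.5 times, and the others are given here. Counting hotspots at the highest q only left 2 of 8 promoters shared in place of 6, 9 distal sites in place of 37, a replicate 1 share of 66.7% and a shared share of 100% in replicate 2. Shared distal sites numbered 56 within 100 kb, 22 when a site counted only for its nearest TSS, 18 with peaks at or above the median score of their library, and 24 without Twist1. With equal peak numbers the replicate 1 share was 40.2% and the shared shares were 63.4% and 44.3%. A 50% reciprocal overlap gave a shared share of 47.5% in replicate 2. These settings change which peaks or windows are counted, and no further cause of the shifts was tested. Leaving out a replicate gave 7 to 8 open promoters and 61 to 81 distal sites, since sharing then no longer applies. Depth is unknown: a peak found in replicate 1 alone may lie under the limit of detection in replicate 2. No paired analysis was possible because there is 1 group and no comparison between groups.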
